A study of Mus musculus with 2 samples.

Results

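The CD137 unique intergenic peaks are 6565 stretches of open chromatin that the deposited list classes as intergenic, listed for CD137+ adipose cells and not for PDGFRα+ adipose cells. They were taken as every peak of the deposited CD137 list whose place class is intergenic, and they make up 45.3% of the 14483 peaks of that list. The reference throughout is the 3093 intergenic peaks of the PDGFRα list, 38.7% of its 8002 peaks. Both lists together hold 22485 peaks. The assay was ATAC-seq, which tags accessible DNA by transposition, on 1 library from each group. Both groups are adipose progenitors of C57BL/6 mice, isolated by magnetic sorting from SAT or VAT, kept in an adipogenic cocktail and then given dexamethasone at 1 µM. CD137 is the receptor encoded by Tnfrsf9, and PDGFRα, also labelled CD140+, marks adipose stromal progenitors. Which of these depots each group came from is not in the labels, and no sample without dexamethasone is analysed here. Their extraction text speaks of embryonic cells, so embryo genes were counted too.

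DNA far from genes holds many of the enhancers that set cell identity. An enhancer can act on a promoter over long distances, and the gene it acts on need not be the nearest one. Long gene-free stretches, called gene deserts, often flank genes for developmental transcription factors and cell adhesion proteins. In every statement below a nearest gene is therefore a position and not a target.

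The lists give positions only, with no height, score or read number, so the depth of the libraries is unknown. All intervals are 95% intervals for counting error alone. Nothing can be checked against replicates, since each group is a single library, and p-values are left out. The CD137 list is the longer one, and the CD137 share of all intergenic peaks was 68.0% (67.0 to 68.9), which is the level each share below is read against. Differences in list length, depth and threshold between the libraries cannot be told apart from differences between the cells. Median peak width was 1191 bp for CD137 and 1192 bp for PDGFRα. The CD137 intergenic peaks covered 8123 kb and the PDGFRα ones 3862 kb. By construction of unique lists, no CD137 intergenic peak overlapped a PDGFRα peak by 1 bp, and 573 (8.73%) lay within 10 kb of one.

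Sequences can be shown for the CD137 intergenic peaks that fall on a RefSeq start site of a non-coding RNA. They are given first because they are the letters of the open regions themselves. A start window here is the 250 bases before and 50 bases after an annotated start (RefSeq, GRCm38.p6, which is mm10), and 66 CD137 peaks (1.01%) held at least 1 whole window of a long non-coding RNA, against 73 PDGFRα peaks (2.36%). Of these, 23 CD137 peaks and 17 PDGFRα peaks lay at least 100 kb from a protein-coding gene. The 5 windows below are examples picked by hand after the values were seen. Gm14062 starts in the desert between Jag1 and Btbd3, and Gm32359 in the desert between Ets1 and Kirrel3, which are both described below. Gm11228 starts 597 kb from Megf9. Mexis starts 110 kb from Abca1, the cholesterol exporter whose transcription it is known to promote in macrophages. Mir100hg, the host transcript of a miRNA cluster, starts 215 kb from Ubash3b. Capitals mark a match to the AP-1 motif TGANTCA or the TEAD motif CATTCC on either strand, and the letters run 5′ to 3′ along the RNA.
Gm14062, chr2:137876782-137877081, minus strand: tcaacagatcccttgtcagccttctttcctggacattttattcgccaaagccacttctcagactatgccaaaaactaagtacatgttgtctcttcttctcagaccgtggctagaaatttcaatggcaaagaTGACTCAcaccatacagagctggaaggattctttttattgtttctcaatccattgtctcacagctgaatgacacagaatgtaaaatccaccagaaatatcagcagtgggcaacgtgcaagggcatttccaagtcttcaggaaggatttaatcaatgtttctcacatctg
Gm11228, chr4:71131084-71131383, minus strand: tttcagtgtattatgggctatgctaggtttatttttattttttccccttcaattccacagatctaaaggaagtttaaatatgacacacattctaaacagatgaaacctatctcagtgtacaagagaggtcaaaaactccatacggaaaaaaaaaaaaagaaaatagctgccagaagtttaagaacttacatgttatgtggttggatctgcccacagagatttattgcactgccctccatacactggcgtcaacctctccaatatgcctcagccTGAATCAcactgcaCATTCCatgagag
Gm32359, chr9:34029849-34030148, minus strand: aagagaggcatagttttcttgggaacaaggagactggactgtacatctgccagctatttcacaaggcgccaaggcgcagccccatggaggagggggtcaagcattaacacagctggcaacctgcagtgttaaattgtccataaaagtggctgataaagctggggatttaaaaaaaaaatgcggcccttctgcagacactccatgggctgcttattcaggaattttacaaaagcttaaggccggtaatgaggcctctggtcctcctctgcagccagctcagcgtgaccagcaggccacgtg
Mexis, chr4:53270183-53270482, minus strand: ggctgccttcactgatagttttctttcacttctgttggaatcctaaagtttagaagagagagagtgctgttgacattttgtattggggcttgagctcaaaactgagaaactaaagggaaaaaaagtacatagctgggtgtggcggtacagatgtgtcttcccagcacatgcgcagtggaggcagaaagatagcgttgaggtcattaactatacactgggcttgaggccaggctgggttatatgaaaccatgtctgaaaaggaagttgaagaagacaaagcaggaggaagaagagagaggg
Mir100hg, chr9:41376276-41376575, plus strand: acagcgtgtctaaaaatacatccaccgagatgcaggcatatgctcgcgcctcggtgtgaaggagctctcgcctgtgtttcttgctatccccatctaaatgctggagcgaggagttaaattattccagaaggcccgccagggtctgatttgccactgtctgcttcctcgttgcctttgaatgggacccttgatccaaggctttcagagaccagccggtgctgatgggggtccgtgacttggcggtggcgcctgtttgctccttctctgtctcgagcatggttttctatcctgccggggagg
Gm14062 has 1 AP-1 match near the middle of its window, Gm11228 has an AP-1 and a TEAD match close together near its end, and the other 3 windows hold neither.

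Over all 71 long non-coding windows in CD137 intergenic peaks, 15 (21.1%, 13.2 to 32.0) held TGANTCA. Among the 92 windows in PDGFRα intergenic peaks 12 (13.0%, 7.62 to 21.4) did, and among all 11547 long non-coding windows 9.24% did. The interval of the CD137 windows lies above the share of all windows and overlaps that of the PDGFRα windows. CATTCC was in 21.1% of CD137 windows, 25% of PDGFRα windows and 16.6% of all long non-coding windows. The hexamer of the glucocorticoid receptor, TGTTCT, was in 18.3%, 26.1% and 24.0%. The C/EBP motif TTGCNNAA was in 15.5%, 14.1% and 12.0%, and the EBF motif CCCNNGGG in 5.63%, 14.1% and 10.1%. Motifs were searched on both strands, and several windows of 1 gene can overlap. For these 4 motifs the intervals of both lists overlapped. A match is a description of letters and not of binding.

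A miRNA hairpin lay whole inside 4 CD137 intergenic peaks and inside none of the PDGFRα ones, of 1005 hairpins in the RefSeq table. Mir344d-2 and Mir344b lie on chromosome 7, in peaks 572 kb from Gm51483 and 558 kb from Ndn, a maternally imprinted gene of the Prader-Willi region. The Mir3966 hairpin is in a peak 56.1 kb from Dcn, which encodes the matrix proteoglycan decorin. Mir7228 is in a peak whose centre lies inside the RefSeq gene Syna, a syncytin, although the deposited class is intergenic. For the 3 hairpins outside genes 4 mature forms are shown, the 5p form of Mir344d-2 being left out, with the seed, bases 2 to 8, in capitals.
mmu-miR-344d-3p: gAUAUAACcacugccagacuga
mmu-miR-344b-3p: cAUUUAGCcaaagccugacugu
mmu-miR-344b-5p: aGUCAGGCuccuggcuaaaguuc
mmu-miR-3966: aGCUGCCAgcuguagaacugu
No seed is shared among them, and the 3p seeds of the 2 miR-344 forms differ.

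CD137 intergenic peaks lay farther from protein-coding genes than PDGFRα ones. The median distance from the peak centre to the nearest protein-coding gene was 71.1 kb (67.4 to 75.3), with the middle 50% of peaks between 23.8 and 208 kb. For PDGFRα the median was 47.0 kb (44.2 to 50.4) and the middle 50% ran from 16.9 to 133 kb. The difference of the medians was 24.2 kb (19.1 to 29.1). Every position of the gene-free space, taken alike, gives a median of 87.7 kb, above the medians of both lists. The lower quartile of that space was 20.9 kb, below the 23.8 kb of CD137 and above the 16.9 kb of PDGFRα. The measures differ, since the space leaves out positions inside genes and the peaks within 5 kb mostly carry other classes. The space, here and in the densities below, also counts 88.4 Mb of chromosome Y, with no CD137 intergenic peak and 1 PDGFRα one. Counting long non-coding and other RefSeq genes as genes, the medians were 15.5 and 11.3 kb and their difference 4.16 kb. The centre lay in a long non-coding RNA gene for 1012 CD137 peaks (15.4%) and 524 PDGFRα peaks (16.9%). It lay inside a RefSeq protein-coding gene, at distance 0, for 193 (2.94%) and 102 (3.30%).

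The CD137 share of the peaks was higher the farther they lay from genes. At 100 kb or more from any coding gene lay 42.2% of CD137 and 31.0% of PDGFRα peaks, a difference of 11.2 percentage points (9.15 to 13.2). At 200 kb or more lay 1689 CD137 peaks (25.7%) and 502 PDGFRα peaks (16.2%), a difference of 9.50 points (7.80 to 11.1). At 500 kb or more the shares were 8.59% and 3.43%, and at 1000 kb or more 133 and 23 peaks remained. Per Mb of gene-free space, CD137 peaks numbered 5.27 (4.99 to 5.57) at 20 to 50 kb from a gene and 1.8 (1.50 to 2.13) beyond 1000 kb. PDGFRα peaks numbered 2.82 (2.62 to 3.04) and 0.310 (0.197 to 0.466) in the same bands. Both lists thus thinned out with distance, PDGFRα more steeply. The CD137 share of the peaks went from 61.1% (58.9 to 63.3) at 5 to 20 kb to 83.9% (80.4 to 86.9) at 500 to 1000 kb and 85.3% (78.7 to 90.4) beyond. The band within 5 kb is nearly empty in both lists because the deposited classes name such peaks up5k or down5k.

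**Figure D1:**
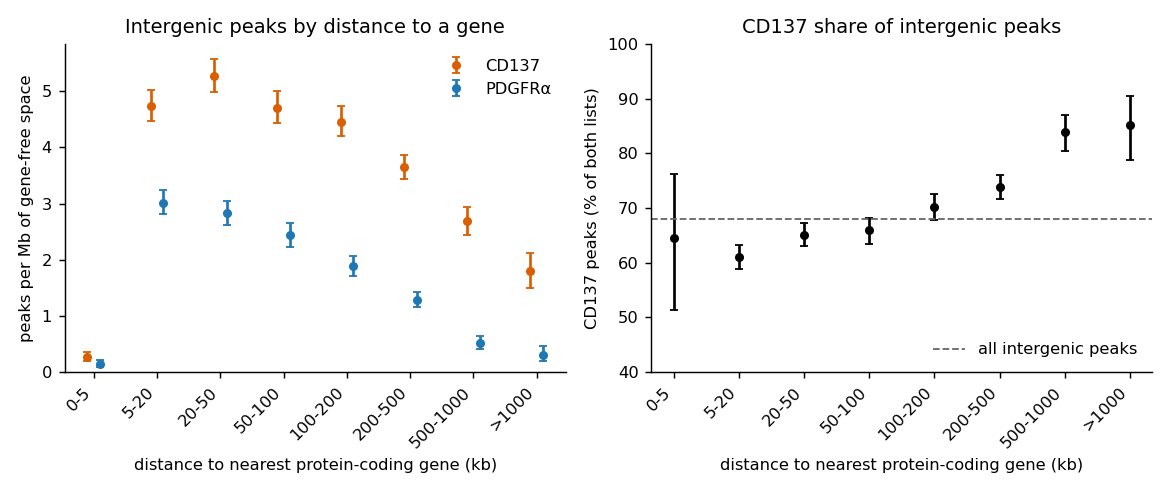
Left, intergenic peaks per Mb of gene-free space (y axis) in bands of distance to the nearest protein-coding gene (x axis, kb), for CD137 (orange) and PDGFRα (blue), with exact Poisson 95% intervals as bars. Right, CD137 peaks as a percentage of both lists in the same bands, with exact binomial 95% intervals, on an axis from 40 to 100; the share is 61.1% at 5 to 20 kb and 85.3% beyond 1000 kb, and the dashed line is the 68.0% of all intergenic peaks.

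Some CD137 intergenic peaks were megabases away from any coding gene. The farthest, 983 bp wide at chr14:82313406-82314389, lies 2130 kb from Pcdh17, a protocadherin. Next come a peak 2042 kb from Olfm4, on the other side of the same desert, and one 2002 kb from Cdh20, a type II cadherin. Peaks at 1924 kb from Celf4, an RNA-binding protein of neurons, and 1897 kb from Pik3c3, a phosphoinositide kinase of autophagy, share 1 desert on chromosome 18. The widest peaks were picked by width and those above by distance, so the distances of these picks were not compared. The widest peaks named here lay on both sides of the 71.1 kb median distance of all CD137 intergenic peaks. The widest, 4709 bp, is 77.0 kb from 1700001O22Rik, and the others are 4398 bp wide at 21.0 kb from the cytokine gene Lif, 3852 bp at 108 kb from Nudt7, 3775 bp at 28.7 kb from Il17b and 3707 bp at 114 kb from the transcription factor gene Ets2.

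Gene deserts held a larger part of the CD137 intergenic peaks. A desert here is a stretch of at least 500 kb between neighbouring protein-coding genes, and 711 of them make up 49.4% of the gene-free space. They held 2817 CD137 peaks (42.9%, 41.7 to 44.1) and 945 PDGFRα peaks (30.6%, 29.0 to 32.2), a difference of 12.4 points (10.3 to 14.4). The CD137 share was 74.9% (73.5 to 76.3) in deserts and 63.6% (62.3 to 64.8) outside them. Neither list was denser in deserts than elsewhere. CD137 peaks numbered 3.44 per Mb in deserts and 4.23 per Mb in shorter gaps, and PDGFRα peaks 1.15 and 2.43. With gaps measured between RefSeq genes of any kind, the difference in desert share fell to 2.57 points, while the CD137 share in those deserts was 81.2%.

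The share followed the length of the gap. In gaps up to 50 kb, 509 CD137 and 352 PDGFRα peaks gave a CD137 share of 59.1% (55.7 to 62.4). Between 50 and 500 kb the share stayed between 62.2% and 65.2%, and between 500 and 2000 kb it was 73.3% to 73.4%. In the 84 gaps above 2000 kb, 560 CD137 and 125 PDGFRα peaks gave 81.8% (78.7 to 84.6), or 4.48 CD137 peaks for each PDGFRα peak. Median widths in those longest gaps were 1140 bp for CD137 and 1189 bp for PDGFRα. When the CD137 list was cut to its 3093 widest intergenic peaks, so that both lists were of 1 length and the level to read against was 50%, the share ran from 40.7% (36.8 to 44.8) in the shortest gaps to 64.6% (59.4 to 69.6) in the longest. The ratio in the longest gaps was then 1.82.

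**Figure D2:**
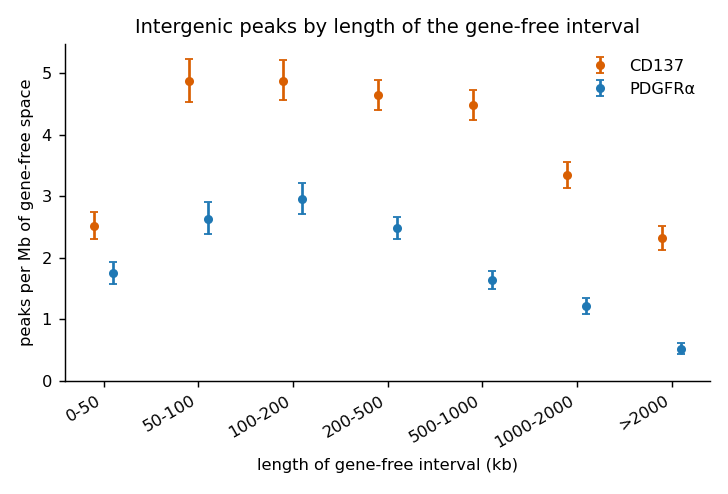
Intergenic peaks per Mb (y axis) by the length of the gap between protein-coding genes in which they lie (x axis, kb), for CD137 (orange) and PDGFRα (blue), with exact Poisson 95% intervals as bars. In gaps above 2000 kb the densities are 2.31 and 0.516 per Mb.

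Single deserts differed widely. CD137 peaks without any PDGFRα peak were found in 218 deserts, both kinds in 348, PDGFRα peaks alone in 19 and neither in 126. At least 5 CD137 peaks and no PDGFRα peak were in 64 deserts, and the reverse was true of 2. The 218 deserts with CD137 peaks alone held 812 of them. These counts come from 2817 CD137 and 945 PDGFRα intergenic peaks in deserts and are not set at equal list length. Peaks of other classes are left out of them.

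The 8 deserts with the most CD137 peaks had from 0 to 10 PDGFRα peaks. The desert between Slc10a2, the ileal bile acid transporter, and Efnb2, the Eph receptor ligand ephrin-B2 (chr8:5105288-8617234), held 23 CD137 and 8 PDGFRα peaks. Either side of Flrt2, a leucine-rich repeat membrane protein of cell adhesion and guidance, lie 2 more. The one toward Gm40892 (chr12:92894951-95692005) held 21 CD137 peaks and 1 PDGFRα peak, and the one toward Galc (chr12:95785216-98202286), the lysosomal galactosylceramidase gene, held 16 and 0. Over this whole stretch of 5.31 Mb there were 37 CD137 intergenic peaks and 1 PDGFRα one, and 39 and 2 with peaks of every class counted. The desert between Ets1, a transcription factor, and Kirrel3, an immunoglobulin-family adhesion protein of neurons (chr9:32757821-34485852), held 16 CD137 peaks and no PDGFRα peak. The desert was picked for its count, and the exact interval of the CD137 share starts there at 79.4%, beside the 74.9% of all deserts.

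In the other 4 of these deserts PDGFRα peaks were present. Zfp608 to Gramd3 (chr18:54992592-56387484) held 18 CD137 and 3 PDGFRα peaks. Between Jag1, a Notch ligand, and Btbd3 (chr2:137116521-138256583) were 15 CD137 peaks, 13.2 per Mb, and 3 PDGFRα peaks. The PDGFRα peaks there lay 37.6, 109 and 228 kb from the Jag1 end, and the CD137 peaks from 204 to 974 kb, with 4 of them between 378 and 400 kb. Nmbr to Cited2 (chr10:14771459-17723227) held 16 and 10, a CD137 share of 61.5% (40.6 to 79.8). Zeb2, a repressor of epithelial genes, to Acvr2a, an activin receptor (chr2:45117443-48814108), held 15 and 7. All 8 were picked by CD137 count, with ties going to fewer PDGFRα peaks, which favours a high CD137 share. Of the 8, the intervals of 3 lie above the 68.0% of all intergenic peaks, and the other 5 hold it. The 3 are Ets1 to Kirrel3 and both deserts beside Flrt2. Both Flrt2 deserts are longer than 2000 kb, and their intervals (77.2 to 99.9 and 79.4 to 100) hold the 81.8% of such gaps.

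**Figure D3:**
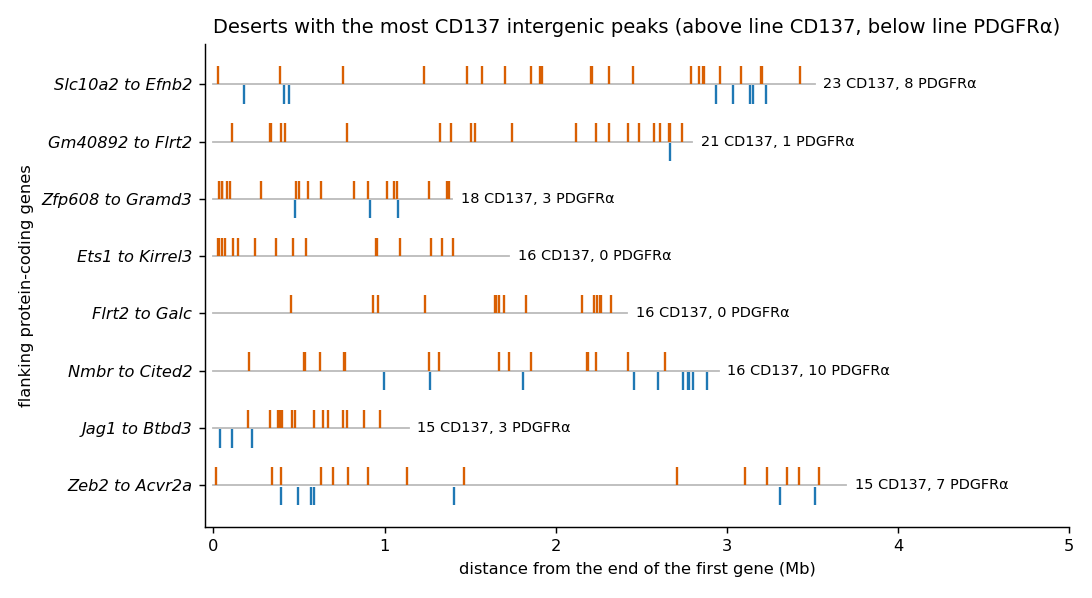
Positions of CD137 intergenic peaks (orange, above each line) and PDGFRα intergenic peaks (blue, below) in the 8 deserts with the most CD137 peaks, on the x axis as Mb from the end of the first flanking gene, 1 desert a row. Ets1 to Kirrel3 and Flrt2 to Galc hold 16 CD137 peaks and no PDGFRα peak each, while Nmbr to Cited2 holds 16 and 10.

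Outside the 8, the deserts with the most CD137 peaks and no PDGFRα peak were named after their values were seen. Cdh6 to Cdh9 held 14, Gm15501 to Tenm4, a teneurin, 13, and Cdh8 to Cdh11 12. The desert upstream of Sox9, the master regulator of cartilage whose distal enhancers are a textbook example, held 13 CD137 peaks and no PDGFRα peak between Gm11677 and Sox9 (chr11:111726302-112782209). Nyap2 to Irs1, the insulin receptor substrate, held 11 and 0. The reverse was seen between Rbfox1, an RNA-binding splicing regulator, and Tmem114, with 8 PDGFRα peaks and no CD137 peak.

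By nearest gene, CD137 intergenic peaks were spread over many loci and piled up at few. Of 21883 protein-coding genes, 3286 (15.0%) were nearest to at least 1 CD137 intergenic peak, 2115 (9.67%) to CD137 but no PDGFRα peaks, and 2097 (9.58%) to at least 1 PDGFRα peak. Both kinds were at 1171 genes. A single CD137 peak was at 1908 genes, while 266 genes had 5 or more and together held 27.1% of the peaks. For PDGFRα 33 genes had 5 or more. At 89 genes there were 5 or more CD137 peaks and no PDGFRα peak, and at 3 the reverse. These counts come from lists of 6565 and 3093 intergenic peaks and are not set at equal length. Genes with many peaks had much space around them. The gene-free space nearest to a gene, taken as the nearer 50% of each flanking gap, had a median of 0.677 Mb for the 266 genes and 0.0188 Mb for all protein-coding genes.

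The 10 genes with the most CD137 intergenic peaks were Flrt2, Zfp608, Efnb2, Cdh11, Klf6, Galc, Trib2, Insig2, Maf and Cdh6. Flrt2 had 16 CD137 peaks at 60.7 to 1292 kb and 1 PDGFRα peak. Zfp608, a zinc finger gene, also had 16 and 1, its CD137 peaks at 33.0 to 626 kb. Efnb2 had 16 and 5. Cdh11, the cadherin of mesenchymal cells, had 14 and 1, with CD137 peaks from 4.61 to 1469 kb. Klf6, a Krüppel-like transcription factor gene, had 14 and 4. Galc had 13 and none. These 6 genes all had more CD137 than PDGFRα peaks, but genes were ranked by CD137 count, with ties going to fewer PDGFRα peaks. That choice favours a high CD137 share, which exact intervals do not allow for. The intervals of Flrt2, Zfp608, Cdh11 and Galc (lower bounds 71.3%, 71.3%, 68.1% and 75.3%) lie above the 68.0% of all intergenic peaks. All 4 have over 1 Mb of space around them, and each interval holds the 81.4% of all genes with at least 1 Mb. Counts at single genes also moved with the peaks used. In the wider 50% of peaks Flrt2 had 4, Cdh11 3, Zfp608 9 and Klf6 9. Within 500 kb Flrt2 had 9, Galc 6, Cdh11 5 and Efnb2 4.

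Trib2, which encodes a pseudokinase, had 13 CD137 and 3 PDGFRα peaks. Insig2, the membrane protein that holds back sterol-regulated transcription factors, had 12 and 1 within 343 kb. Its surrounding space was the smallest of the 10, 0.397 Mb, which gives 30.2 CD137 peaks per Mb. Maf, a basic leucine zipper factor, had 12 and 1 within 324 kb, or 20.9 per Mb. Cdh6 had 11 and none, at a median of 1063 kb. Among the 10, the density per Mb was thus highest at Insig2 and lowest at Cdh6, with 6.03. In the wider 50% of peaks Insig2, Trib2 and Cdh6 had 4 each and Maf 7, and within 500 kb Cdh6 had 3. With the nearest RefSeq gene of any kind taken instead, none of the 10 stayed among the top 10.

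**Figure D4:**
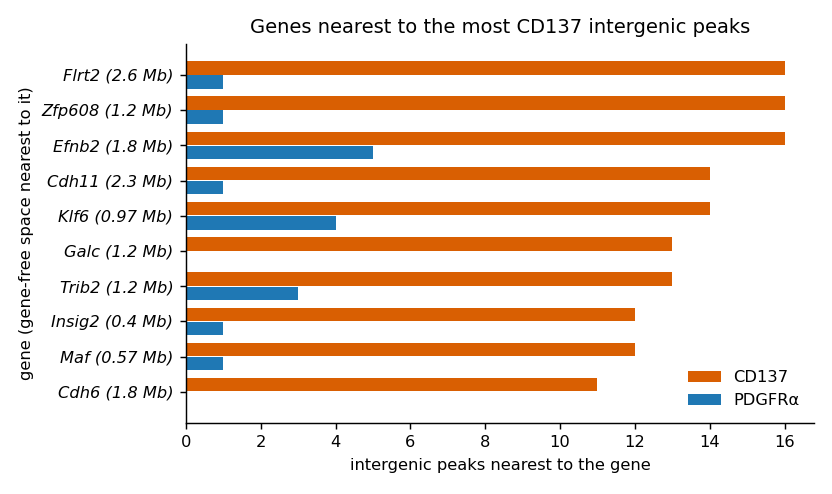
Number of intergenic peaks (x axis) nearest to each of the 10 genes with the most CD137 intergenic peaks (y axis, with the gene-free space nearest to the gene), CD137 in orange and PDGFRα in blue. Counts run from 16 and 1 at Flrt2 to 11 and 0 at Cdh6.

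A few genes leaned the other way, and were picked after their values were seen. Sh3bp4 had 1 CD137 and 7 PDGFRα intergenic peaks, Adamts16 2 and 7, Cntnap5a 1 and 6, and Tmem114 and Wac 0 and 5 each. At the genes named in the labels there were few peaks. Tnfrsf9, the gene of CD137 itself, had none of either kind, and Tead1, which the series title names, had 1 PDGFRα peak and no CD137 peak. Pdgfra had 2 CD137 intergenic peaks, at 29.5 and 184 kb, and no PDGFRα one. The glucocorticoid receptor gene Nr3c1 had 1 CD137 peak, at 100 kb.

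Few CD137 intergenic peaks lay in clusters. Joining neighbours within 20 kb and keeping groups of at least 3 gave 124 clusters with 409 peaks (6.23%, 5.67 to 6.84), and 48 of the clusters lay in deserts, which hold 42.9% of all CD137 intergenic peaks. The PDGFRα list gave 21 clusters with 68 peaks (2.20%, 1.74 to 2.78). A longer list has closer neighbours, and the 3093 widest CD137 peaks gave 17 clusters with 1.84% (1.43 to 2.38) of them. At equal length the CD137 share was thus the lower one, and the intervals overlap, so the higher main share was not kept.

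The largest cluster had 6 peaks in 42.9 kb, between Tcf7l2, a Wnt pathway transcription factor, and Habp2, a hyaluronan-binding serine protease (chr19:56133691-56176618). All 6 were nearest to Habp2, at 111 to 153 kb, and their widths ran from 801 to 1802 bp. Clusters of 5 came next. One spans 26.7 kb between Insig2 and Ccdc93 (chr1:121373362-121400026), 3 of its peaks nearer to Insig2. Another spans 54.2 kb between Cnot2, a subunit of the mRNA deadenylase complex, and Myrfl (chr10:116713055-116767218), where all 5 were nearest to Myrfl at 9.94 to 62.8 kb. Rtl1 and Dio3, genes of an imprinted domain, flank one of 51.1 kb (chr12:109844876-109896014). Fam43a and Xxylt1 flank one of 29.8 kb (chr16:30761197-30790957). No PDGFRα peak and no CD137 peak of another class fell inside any of these 5.

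The 14 gene lists and their members were chosen with earlier results of these data known, so their shares are descriptions only. Among the 14 gene lists the neural adhesion and synapse genes had the highest CD137 share of peaks, and the lowest number of CD137 peaks per Mb. Of 36 members, 28 (77.8%) were nearest to a CD137 intergenic peak and 5 (13.9%) to a PDGFRα one, beside 15.0% and 9.58% of all protein-coding genes, and 23 (63.9%) had CD137 peaks only, beside 9.67%. They held 100 CD137 and 12 PDGFRα peaks, a CD137 share of 89.3% (82.0 to 94.3). Cdh6 had 11 and 0, and Cdh8 and Slitrk1 had 7 and 0 each. Pcdh17, also a member, had 3 and 4. The list is made of genes with long gaps around them, with a median of 1.16 Mb. The 19 of its genes with at least 1 Mb had a share of 87.6% (79.0 to 93.7), and the 199 other genes with that much space had 80.8% (78.2 to 83.3). These intervals overlap, so the share did not set the list apart from other genes with that much space. Per Mb, though, the 19 genes had fewer peaks of both lists than the 199 others. Their CD137 density was 1.95 (1.54 to 2.43), beside 2.65 (2.47 to 2.84) for the others. For PDGFRα it was 0.275 (0.137 to 0.491), beside 0.629 (0.542 to 0.725). Over the whole list the CD137 density, 2.08 per Mb (1.69 to 2.53), was below the 3.84 of all gene-free space. The PDGFRα density of the list, 0.249 (0.129 to 0.435), was below 1.8. List densities, here and below, also count peaks inside genes, which the values for all gene-free space leave out.

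Developmental transcription factor genes often had intergenic peaks of either list. Of 60 members 47 (78.3%) had a CD137 peak and 34 (56.7%) a PDGFRα one, beside 15.0% and 9.58% of all protein-coding genes, with 169 and 66 peaks and a CD137 share of 71.9% (65.7 to 77.6), which holds 68.0%. Maf (12 and 1), Zeb2 (11 and 5), Sox9 (9 and 0) and Zfhx3 (7 and 3) led. The median CD137 distance at Zfhx3 was 0 kb, so many of its CD137 peaks lay inside that RefSeq gene. The members' median space was 0.448 Mb, far above that of all genes.

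The 3 lists of adipose genes had from 7 to 11 PDGFRα peaks and from 16 to 32 CD137 peaks. The white fat and depot list, of regulators that mark white fat or one of its depots, had CD137 peaks at 10 of 20 members (50%) and PDGFRα peaks at 3 (15%), beside 15.0% and 9.58% of all protein-coding genes. It held 32 and 7 peaks, a CD137 share of 82.1% (66.5 to 92.5). Its members had a median space of 0.143 Mb, beside 0.0188 Mb for all protein-coding genes. Tbx18, a T-box factor, had 8 and 0, Tle3, a corepressor that acts with PPARγ, 7 and 3, Gata6 4 and 3, and Irx5 3 and 0. The thermogenic and beige list had 23 and 11 peaks, a share of 67.6% (49.5 to 82.6), with CD137 peaks at 9 of 25 members (36%). In it Ppargc1a, the coactivator of mitochondrial biogenesis, had 6 and 3, and some peaks of each list lay inside that RefSeq gene, at distance 0. Tmem26, a beige adipocyte marker, had 5 and 0, Bmp7 3 and 0, and Zfp516 3 and 4, while Ucp1 and Prdm16 had none. The adipocyte list had 16 and 9 peaks, 64.0% (42.5 to 82.0), with CD137 peaks at 10 of 30 members (33.3%). It was led by Ebf1 with 4 and 0, Klf5 with 3 and 2, and Pparg, the master regulator of fat cell formation, with 2 and 0. Cebpb and Rxra had 1 and 2 each, Cd36 0 and 2, and Lep 0 and 1, while Fabp4 and Plin1 had none. CD137 peaks alone were at 7 members and PDGFRα peaks alone at 2. All 3 intervals overlap and hold the 68.0% of all intergenic peaks.

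Glucocorticoid and matrix genes had the lowest shares of the 14 lists, though the glucocorticoid interval holds the 68.0% of all intergenic peaks. At 13 of 29 members (44.8%, beside 15.0% of all genes) the glucocorticoid response list had CD137 peaks, 26 in all beside 20 from PDGFRα (56.5%, 41.1 to 71.1). PDGFRα peaks were at 11 members (37.9%, beside 9.58% of all genes), so both lists were above their level. The members' median space was 0.0558 Mb, beside 0.0188 Mb for all protein-coding genes. Pik3r1, a regulatory subunit of PI3 kinase, had 5 and 6, Lpin1 4 and 1, Sgk1 3 and 1, and Errfi1 3 and 2, while Fkbp5 had none. The matrix and TGF-beta list had 41 and 37 peaks, 52.6% (40.9 to 64.0), an interval below 68.0%. CD137 peaks were at 19 of its 32 members (59.4%) and PDGFRα peaks at 17 (53.1%). The members' median space was 0.0771 Mb. All genes below 0.1 Mb had a share of 61.9%, inside that interval, and those of 0.1 to 0.5 Mb 67.3%, above it. Whether space accounts for the share of this list was not tested. Thbs1, thrombospondin, had 8 and 5, Tnc 6 and 5, Fn1 5 and 3, and Col6a3 2 and 0. The stromal progenitor list had 21 and 14 (60.0%, 42.1 to 76.1), with Dcn at 4 and 3 and Ly6a at 0. The Hippo and TEAD list had 13 and 4 (76.5%, 50.1 to 93.2), an interval that holds 68.0%. CD137 peaks were at 7 of its 30 matched members (23.3%) and PDGFRα peaks at 4 (13.3%), beside 15.0% and 9.58% of all genes. Frmd6 had 3 and 0, Amot 3 and 1, and the target genes Ankrd1 and Ccn2 2 and 0 each. Tead1, Vgll4 and Ptpn14 had 0 and 1 each, and Yap1 and Wwtr1 had none.

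Marker lists of other cell types also had intergenic peaks nearest to them, read here beside 15.0% of all genes with a CD137 one. CD137 peaks were at 8 of 18 endothelial members (44.4%) and PDGFRα peaks at 6 (33.3%, beside 9.58% of all genes). The list held 13 and 7 peaks, and its members had a median space of 0.0384 Mb, beside 0.0188 Mb for all genes. Cdh5, the cadherin of vessels, had 4 and 2, Flt1 and Kdr, receptors of vascular growth factors, 2 and 1 each, and Egfl7 1 and 0, while Pecam1 was at 0. The early embryo list had CD137 peaks at 7 of 22 members (31.8%), 10 and 7 in all, led by Klf4 with 4 and 3, and Pou5f1, Nanog and Zp3 had none. The mesothelial list had them at 3 of 15 members (20%), 5 and 2 in all, with Efemp1 at 3 and 2 and Msln and Wt1 at 0. The skeletal muscle list had 5 and 2, all CD137 ones at Pax3, and Myod1 at 0 in both. The immune list had 4 and 1 at 2 and 1 of 24 members, with Ptprc at 3 CD137 peaks and Cd68 and Adgre1 at 0. CD137 density was 7.19 per Mb (3.83 to 12.3) around endothelial genes and 7.36 (2.39 to 17.2) around mesothelial genes. Around skeletal muscle genes it was 7.24 (2.35 to 16.9). These values were close to the 7.23 around stromal progenitor genes, but their intervals hold the 3.84 of all gene-free space. Around immune and early embryo genes the density was 3.92 and 3.65, with intervals that hold 3.84 too. An absent unique peak does not show that a gene is closed, and whether other cell types contributed was not tested.

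**Figure D5:**
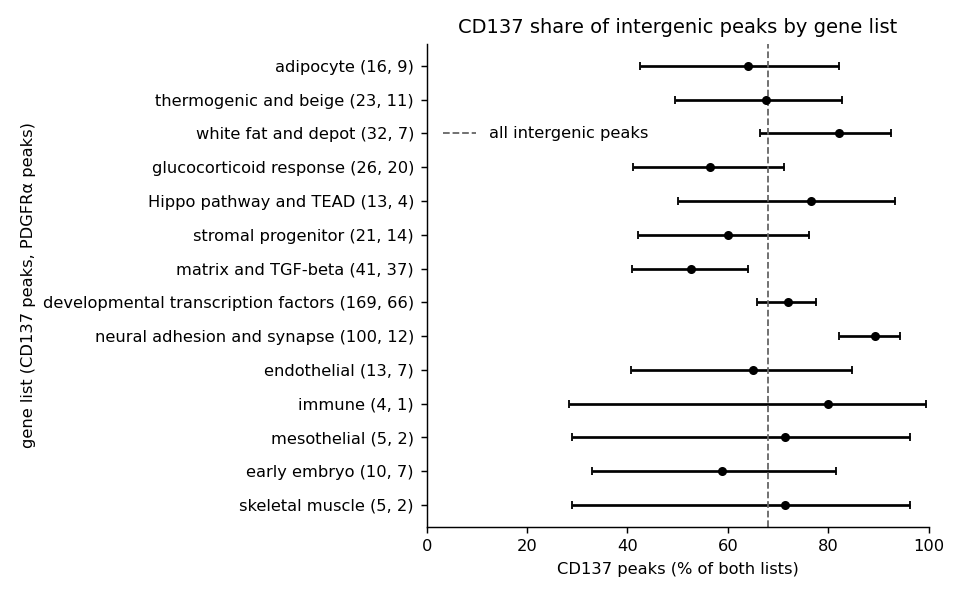
CD137 peaks as a percentage of all intergenic peaks nearest to the genes of each list (x axis), with exact binomial 95% intervals as bars and the numbers of CD137 and PDGFRα peaks beside each list name (y axis). Neural adhesion and synapse (89.3%) lies above, and matrix and TGF-beta (52.6%) below, the dashed line at the 68.0% of all intergenic peaks. The line does not allow for the space around the genes. Lists and members were chosen with earlier results of these data known.

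CD137 intergenic peaks were found on every autosome and on chromosome X. Per Mb of gene-free space they ranged over the autosomes from 2.65 on chromosome 7 to 5.78 (5.25 to 6.35) on chromosome 13. Chromosome X had 135, or 1.08 per Mb (0.905 to 1.28), and its PDGFRα density, 0.624, was likewise below that of every autosome. The CD137 share ran from 61.2% (56.1 to 66.0) on chromosome 17 to 71.1% (67.4 to 74.5) on chromosome 3 among the autosomes. Chromosome Y had no CD137 intergenic peak and 1 PDGFRα one. Relative to the strand of the nearest gene, where the sequence table gave one, 53.2% (51.8 to 54.6) of 4825 CD137 peaks lay upstream, and 56.1% (54.0 to 58.1) of 2313 PDGFRα peaks did.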

How the data were processed

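ATAC-seq was deposited as 1 list of unique peaks for each of 2 libraries, CD137+ and PDGFRα+ cells with dexamethasone. Per the file headers, the deposited values are the other kind of measurement: peak start and end positions, with a gene ID and a place class, and no score or count. The submitters' processing notes name CASAVA 1.8 and mm10. Not given in the sources used here are the aligner, the peak caller, any Tn5 shift, what counted as unique, and whether starts count from 0 or 1. Intergenic rows carry no gene ID, so genes came from a RefSeq table of GRCm38.p6 (mm10), with 21883 protein-coding genes by symbol.

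Distances run from the peak centre to the nearer gene end, at any distance. Gene-free space runs between the first and last protein-coding gene of each chromosome. Shares carry Wilson intervals, CD137 shares exact binomial, densities exact Poisson and differences of shares Newcombe intervals. Medians have exact order-statistic intervals. On simulated data, 100% of 2000 distances and 99.95% of nearest genes were recovered. Named genes were the 4 label genes, the 10 with the most CD137 peaks, the 5 with the largest CD137 excess, the genes beside the 8 leading deserts and 5 leading clusters, those nearest to the 5 widest and 5 most distant peaks, and up to 4 members of each of 14 lists, led by the most CD137 peaks. Some items that this rule picks are not reported here. Members and lists were chosen with earlier results of these data known. Cyr61 and Ctgf, older names of listed genes, were not matched. Motifs were searched in start windows of non-coding RNAs, since no genome was used here. The tools were scipy 1.17.1, numpy 2.4.6, matplotlib 3.10.9 and pandas 2.3.3 in Python 3.11.15.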

Additional observations from a re-analysis of the deposited data

How the results depend on the processing

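No difference in the median distance, in the share at 200 kb or more or in the share in deserts changed direction. With equal numbers the clustered share of CD137 peaks (1.84%) fell below that of PDGFRα (2.20%), and in gaps up to 50 kb the number of CD137 peaks per PDGFRα peak went from 1.45 to 0.688. Of the main results, 35 values under an alternative stayed within their interval or 1.5 times the count, and 30 moved. With the nearest RefSeq gene of any kind, the median distances were 15.5 kb (CD137) and 11.3 kb (PDGFRα), their difference 4.16 kb, the difference in the share at 200 kb or more 1.23 points, and 0 of the top 10 genes stayed. Without peaks inside genes the CD137 median was 76.3 kb, in the wider 50% of peaks 66.6 kb, and with equal numbers 66.2 kb. Equal numbers also gave a difference of 7.47 points at 200 kb or more, 9.02 points in deserts, a CD137 share in deserts of 56.4%, in gaps above 2000 kb of 64.6% and near neural adhesion genes of 79.3% (level 50%), and 17 clusters. Deserts of 300 kb gave a CD137 share of 72.7%, deserts of 1000 kb a difference of 7.86 points, and gaps between genes of any kind 2.57 points and a share of 81.2%. Joining within 10 kb gave 38 clusters (1.8% of peaks), within 50 kb 347 (18.6%) with up to 11 peaks, and at least 5 peaks a cluster 6 (0.472%). Of the top 10 genes, 5 stayed with peaks within 500 kb only and 5 in the wider 50%. Of the CD137 intergenic peaks, 37 lay within 500 bp and 573 within 10 kb of a PDGFRα peak, against 0 overlapping. Except where an alternative sets the number of peaks, genes or joined neighbours, the cause was not tested. Equal numbers, the wider 50% and 500 kb limits for the longest gaps and the neural list were chosen after seeing the data. Counting by deposited gene ID and motifs at peak centres were not run, and gaps above 2000 kb between genes of any kind gave no value. No paired analysis was possible because each group has 1 library. Unknown depth limits all counts, and a peak absent from a list may be open in both groups or in neither.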
